A study of Mus musculus and Homo sapiens
Mus musculus with 16 samples.

Results

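The genes Zfp703 and Zfp503 were examined in H3K4me3 PLAC-seq data of mouse fetal forebrain. They are 2 of 20665 autosomal protein-coding genes in the annotation, and were chosen by their high number of listed interactions in these same data. Every listed interaction was taken in which either 10 kb bin overlapped the body of one of the genes (mm10). These were 156 of the 58543 bin pairs listed in any library, 111 for Zfp703 and 45 for Zfp503. By library they made up 119 and 126 of the 35291 and 36794 interactions listed at E16.5, against 96 and 81 of the 18413 and 16075 listed at E12.5.

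PLAC-seq ligates neighbouring DNA ends inside the nucleus and then pulls down, with an antibody, the products that carry a histone mark. Here the mark was H3K4me3, which lies at active and poised promoters. Both stages were labelled as mouse fetal forebrain, with 2 libraries at the later embryonic stage E16.5 and 2 at E12.5. No strain, genotype or treatment was given for them. The labels do not tie replicates to separate litters, so a p-value here covers the spread among these libraries, which may be technical. The series has 16 samples, of which the other 12, single-cell libraries, were not used here.

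Zfp703 and Zfp503 encode zinc finger proteins of the NET family, related to the Drosophila genes no ocelli and elbow. Proteins of this family act as transcriptional repressors together with Groucho/TLE corepressors. Zfp503, also called Nolz1, is known in mouse as a regulator of the developing striatum. ZNF703, the human counterpart of Zfp703, is known as a gene amplified in breast cancer.

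Zfp503 (gene 218820) spans 5643 bases at chr14:21983959-21989601 on the minus strand, within the single bin chr14:21980001-21990000. That bin also holds the start of the long non-coding RNA gene A330001L22Rik, 126 bases from the start of Zfp503, so interactions of these starts cannot be told apart. The start of Zfp503 lies 399 bases from the edge of the next bin. The sequences before 3 gene starts are shown because they mark the bin from which Zfp503 was seen and the only RefSeq gene starts among its partner bins, those of the long non-coding RNA genes Gm30926 and 4930405A10Rik. They are the 250 bases upstream of each start, all on the minus strand, from RefSeq (GRCm38.p6, the assembly of mm10), and capitals mark each CG. Positions are chr14:21989602-21989851 for Zfp503, chr14:22801365-22801614 for Gm30926 and chr14:22542799-22543048 for 4930405A10Rik.
Zfp503: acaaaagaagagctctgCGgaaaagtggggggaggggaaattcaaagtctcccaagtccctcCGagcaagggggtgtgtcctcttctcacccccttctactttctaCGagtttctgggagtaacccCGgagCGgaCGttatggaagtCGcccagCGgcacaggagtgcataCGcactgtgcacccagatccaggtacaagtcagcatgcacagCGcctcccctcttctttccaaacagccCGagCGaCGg
Gm30926: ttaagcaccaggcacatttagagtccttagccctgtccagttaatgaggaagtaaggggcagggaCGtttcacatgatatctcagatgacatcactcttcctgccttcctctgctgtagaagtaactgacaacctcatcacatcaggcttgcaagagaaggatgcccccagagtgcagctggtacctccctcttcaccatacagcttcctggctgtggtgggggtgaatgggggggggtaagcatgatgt
4930405A10Rik: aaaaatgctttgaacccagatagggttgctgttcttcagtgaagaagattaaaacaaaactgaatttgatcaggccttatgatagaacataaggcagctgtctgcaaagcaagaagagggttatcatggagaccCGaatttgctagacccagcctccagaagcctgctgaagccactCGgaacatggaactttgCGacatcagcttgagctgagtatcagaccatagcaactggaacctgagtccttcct
The Zfp503 sequence holds 13 CG, and 31.5% of the 32851 RefSeq promoters of this length hold as many or more. The sequences at the far ends hold fewer, against a median of 6 over all promoters. Gm30926 has 1 CG, and 18.8% of promoters have 1 or none. The gene 4930405A10Rik has 3, and 37.8% of promoters have 3 or fewer. A GC box, searched as GGGCGG on both strands, was in none of the 3 sequences and in 32.7% of all promoters.

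Zfp703 (gene 353310) spans chr8:26977336-26981462, 4127 bases that fall in 2 bins. The bin chr8:26970001-26980000 holds 2665 bases of the gene and also overlaps the long non-coding RNA gene Gm39150. The bin chr8:26980001-26990000 holds the other 1462 bases. No promoter sequence of Zfp703 is shown, since the promoter table used has no entry for it.

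Zfp703 stood among the most connected genes and bins of the forebrain lists at both stages, and Zfp503 among the more connected ones. Over the 4 libraries the body of Zfp703 was in 318 listed interactions, rank 10 of the 9754 genes with any, and that of Zfp503 in 104, rank 181. These numbers were what the genes were chosen for and are given without a test. Zfp703 had 88 and 98 interactions at E16.5, against 70 and 62 at E12.5. Zfp503 had 31 and 28 at E16.5, against 26 and 19 at E12.5. The stages did not overlap for either gene in this raw number, which was higher at E16.5. The E16.5 lists were longer, and 64.5% of 4036 tested genes had a higher raw number in both libraries of that stage, while 3.39% had a lower one.

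The listed numbers within and beside the genes differed sharply from bin to bin. Of the Zfp703 bins, the one from 26970001 carried most of the interactions, with 64 and 72 at E16.5 and 54 and 51 at E12.5. The bin from 26980001 carried 24 and 26 at E16.5 and 16 and 11 at E12.5. Its partners were nearly a subset of those of the first bin, which had 91.7% and 100% of them at E16.5 and 93.8% and 90.9% at E12.5. For these shared partners the first bin had a median of 2.5 and 2.28 times the read pairs of the second at E16.5, and 2.0 and 2.22 times at E12.5. The next bin, from 26990001, had only 2 and 1 at E16.5 and 1 and 1 at E12.5.

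At Zfp503 a neighbouring bin had interactions too, and whether these stem from the Zfp503 start was not tested. The bin from 21990001, which begins at the edge 399 bases from the Zfp503 start and holds none of the gene, had 17 and 15 interactions at E16.5 and 15 and 10 at E12.5. The bins on either side of this pair, from 21970001 and from 22000001, had 0 in every library.

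Each gene contacted 1 flank of its chromosome. All Zfp503 interactions, 104 summed over the libraries, ran towards higher coordinates. Of the Zfp703 interactions, all 77 of the bin from 26980001 and 240 of 241 of the bin from 26970001 ran towards lower coordinates. The exception, at 20 kb and with 100 read pairs, was listed in E16.5 replicate 2 alone. Such one-sidedness was common among strongly connected bins. Of the 125 bins with at least 15 interactions in each library, 59 (47.2%) had all of them on 1 side and 93 (74.4%) had at least 90% on 1 side.

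The sides contacted were those with fewer protein-coding genes by count. Within 1 Mb of Zfp703 the annotation has 5 protein-coding genes on the lower side and 12 on the higher side. Within 1 Mb of Zfp503 it has 10 on the lower side and 1, Lrmda, on the higher side. The flanks differ in gene coverage, since Lrmda is long. All 45 Zfp503 partner bins overlap a protein-coding gene, against 2 of the 72 of Zfp703.

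**Figure D1:**
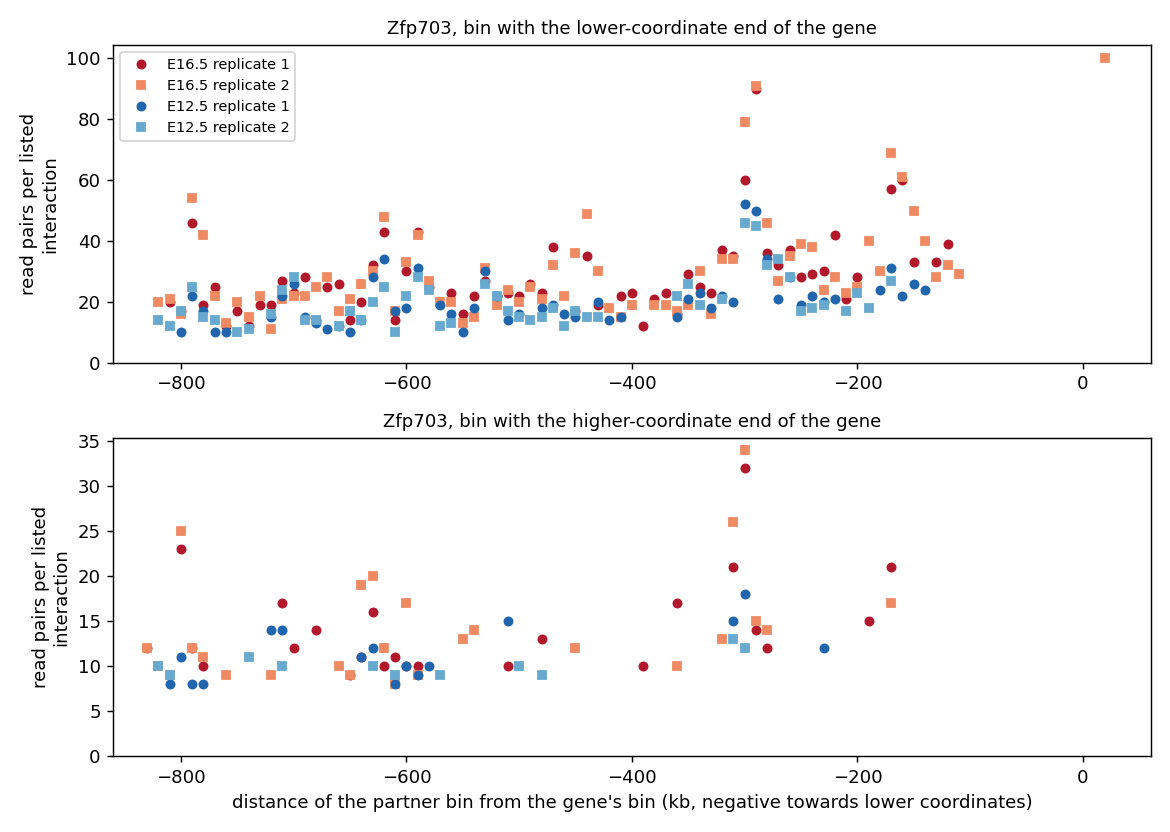
Read pairs of each listed Zfp703 interaction (y axis) against the distance of its partner bin in kb (x axis, negative towards lower coordinates), for the gene's bin from 26970001 (top) and from 26980001 (bottom). Red and orange are E16.5 replicates 1 and 2, dark and light blue are E12.5 replicates 1 and 2. The points at -290 kb in the top panel, the highest on the lower side, are 90 and 91 at E16.5 and 50 and 45 at E12.5. On the other side lies 1 point at 20 kb, with 100 read pairs in E16.5 replicate 2.

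The partner bins of Zfp703 filled a continuous block. The 72 bins of chr8:26150001-26870000 were each a partner in at least 1 library. Of these, 39 were listed in all 4 from the same Zfp703 bin. Of the listed interactions that touched this block, 77.9% and 84.3% at E16.5 and 83.3% and 87.3% at E12.5 had Zfp703 at the other end. No listed interaction had both ends inside it. The bin with the most of the others, named after its values were seen, was chr8:27020001-27030000, at the protein-coding gene Erlin2. It had 9 and 5 interactions with the block at E16.5 and 6 and 2 at E12.5. Erlin2, which encodes a protein of endoplasmic reticulum lipid rafts, lies on the far side of Zfp703 from the block.

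The block is poor in protein-coding sequence. Only 2 of the 72 partner bins overlapped a protein-coding gene, in each case Thap1, a zinc finger transcription factor gene, whereas 21 overlapped a long non-coding RNA gene. RefSeq gene starts were in 8 of the bins, all of long non-coding RNA genes, and 5 of the 8 were partners in all 4 libraries. The bin with the Gm39148 start, 590 kb from the Zfp703 bin from 26970001, had 43 and 42 read pairs at E16.5 and 31 and 28 at E12.5. Thap1 itself was in 13 and 17 listed interactions at E16.5 and 6 and 9 at E12.5. Of these, 2 and 4 at E16.5 and 0 and 3 at E12.5 were with Zfp703.

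The partner bins of Zfp503 lay inside a single gene. They spanned chr14:22280001-22930000, where 45 of 65 bins were partners in at least 1 library and 12 in all 4. All 45 lie within Lrmda, a leucine-rich melanocyte differentiation associated gene that spans chr14:22019504-23056093. Lrmda begins 29.9 kb from Zfp503 and runs past the 1000 kb limit of the lists. Partners on this side at the listed distances therefore fall in it by position alone. Lrmda was in 50 and 43 interactions at E16.5 and 41 and 29 at E12.5. Of these, 31 and 28 at E16.5 and 26 and 19 at E12.5 were with the Zfp503 bin. The bin with the start of Lrmda itself had 2 and 0 interactions at E16.5 and 0 and 0 at E12.5. Of the interactions touching the span, 62.0% and 65.1% at E16.5 and 65.0% and 65.5% at E12.5 had the Zfp503 bin at the other end. Most of the others, 17 and 15 at E16.5 and 14 and 10 at E12.5, had the neighbouring bin from 21990001. The partner bins with the starts of 4930405A10Rik and Gm30926 were both listed in all 4 libraries. The bin with the 4930405A10Rik start, at 560 kb, had 20 and 24 read pairs at E16.5 and 20 and 25 at E12.5.

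**Figure D2:**
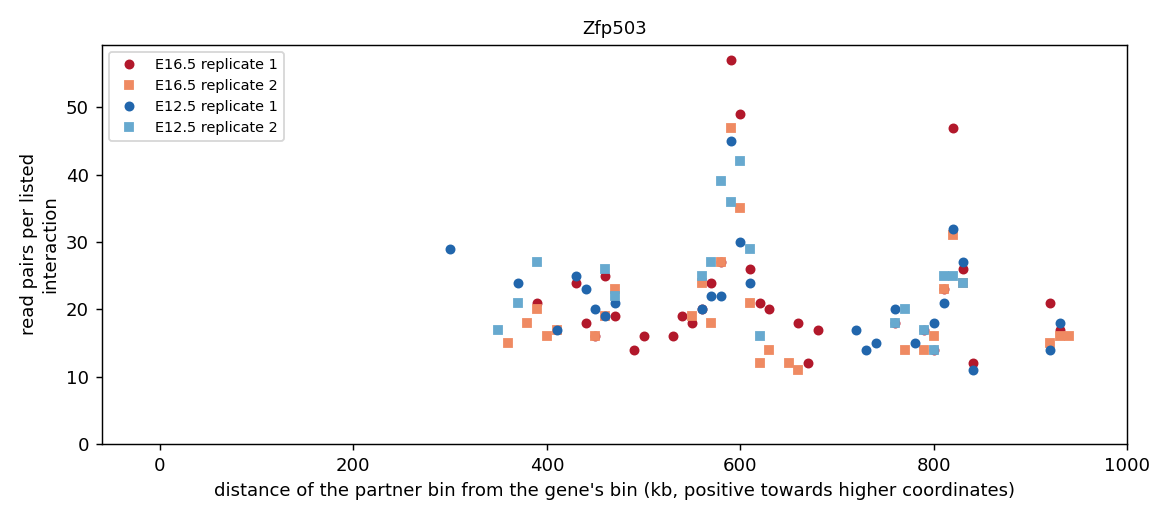
Read pairs of each listed Zfp503 interaction (y axis) against the distance of its partner bin in kb (x axis, positive towards higher coordinates). Red and orange are E16.5 replicates 1 and 2, dark and light blue are E12.5 replicates 1 and 2. Points are highest near 590 kb, with 57 and 47 read pairs at E16.5 and 45 and 36 at E12.5, and no point lies nearer than 300 kb.

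Both genes reached far along the chromosome at both stages. The median distance of Zfp703 interactions was 510 and 515 kb at E16.5, against 535 and 545 kb at E12.5. That of Zfp503 was 600 and 605 kb at E16.5 and 605 and 600 kb at E12.5. All listed interactions had medians of 300 and 290 kb at E16.5 and 260 and 260 kb at E12.5. Of the Zfp503 interactions, 74.2% and 71.4% at E16.5 and 69.2% and 73.7% at E12.5 spanned over 500 kb. For Zfp703 this share was 51.1% and 51.0% at E16.5 and 55.7% and 54.8% at E12.5. Over all interactions it was 25.4% and 23.0% at E16.5 and 19.8% and 19.0% at E12.5.

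The Zfp703 median was shorter at E16.5, by a difference of -27.5 kb, and the stages did not overlap. The means were 512.5 ± 3.5 kb at E16.5 and 540 ± 7.1 kb at E12.5 (SD, n = 2 each). The exact permutation test over the 6 assignments gave p = 0.333, two-sided, the smallest value that 2 libraries against 2 allow. A median distance lower in both E16.5 libraries was found for 14.9% of the 3092 tested genes with interactions in all 4 libraries. With lists cut to the 16075 interactions of lowest FDR, the difference was 5 kb, in the other direction. For Zfp503 the difference was 0 kb, with means of 602.5 ± 3.5 kb at both stages (SD, n = 2 each, exact permutation p = 1).

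The distances had inner and outer limits that differed between the genes. The nearest Zfp503 interaction was at 390 and 360 kb at E16.5 and at 300 and 350 kb at E12.5. Its farthest was at 930 and 940 kb at E16.5 and at 930 and 830 kb at E12.5. The Zfp703 interactions on the lower side began at 120 and 110 kb at E16.5 and at 140 and 170 kb at E12.5. They ended at 830 and 830 kb at E16.5 and at 810 and 820 kb at E12.5, short of the 1000 kb limit of the lists. Beyond 100 and up to 200 kb, Zfp703 had 8 and 11 interactions at E16.5, against 5 and 3 at E12.5. These raw numbers come from lists of 35291 and 36794 interactions at E16.5 and 18413 and 16075 at E12.5. For interactions of at most 200 kb, the log2 change in the number for Zfp703 was 0.78 and did not pass (edgeR adjusted p = 0.525).

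Relative to the length of the lists, both genes held a smaller share of the interactions at E16.5. Zfp703 had 2.49 and 2.66 interactions per 1000 listed at E16.5, against 3.80 and 3.86 at E12.5. Zfp503 had 0.878 and 0.761 per 1000 at E16.5, against 1.41 and 1.18 at E12.5. The stages did not overlap for either gene, as for 28.8% of tested genes, which were lower in both E16.5 libraries on this scale. With lists of equal length, Zfp703 had 56 and 66 interactions at E16.5 and 63 and 62 at E12.5, which overlapped. Zfp503 then had 18 and 11 at E16.5 and 25 and 19 at E12.5, without overlap. A smaller share of a longer list need not be a loss of contact. In a bulk tissue, the number of cells with a contact and its strength in each cell also cannot be told apart.

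The test of contact number over all genes did not separate the stages for either gene. In edgeR's quasi-likelihood test with TMM normalization and Benjamini-Hochberg adjustment, the log2 change (E16.5 minus E12.5) was -0.35 for Zfp703 (SE 0.15, adjusted p = 0.144). For Zfp503 it was -0.45 (SE 0.27, adjusted p = 0.310). Of the 4036 genes tested, 443 (11%) rose and 141 (3.49%) fell, 14.5% in all, and the median change was 0.25. Without TMM the Zfp703 change was -0.49 and passed (edgeR adjusted p = 0.0443), while the median of all genes was 0.11, a shift of -0.14. It was 0.081 with lists of equal length, 0.052 at an FDR under 0.0001 and 0.025 with read pairs in place of interactions, none of which passed.

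In read pairs, the genes differed in how their share stood at the later stage. Zfp503 interactions held 7.75 and 6.07 of every 10000 listed read pairs at E16.5, against 12.6 and 11.6 at E12.5. The means were 6.91 ± 1.19 at E16.5 and 12.1 ± 0.713 at E12.5 (SD, n = 2 each), a ratio of 0.571 (exact permutation p = 0.333, two-sided, the smallest possible). The stages did not overlap, and among tested genes 25.4% were lower and 37.4% higher in each E16.5 library. Zfp703 held 24.0 and 28.0 per 10000 at E16.5 and 28.9 and 27.6 at E12.5, which overlapped (means 26.0 ± 2.82 and 28.3 ± 0.912, SD, n = 2 each, exact permutation p = 0.667). Whether the genes differ from each other in this was not tested.

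**Figure D3:**
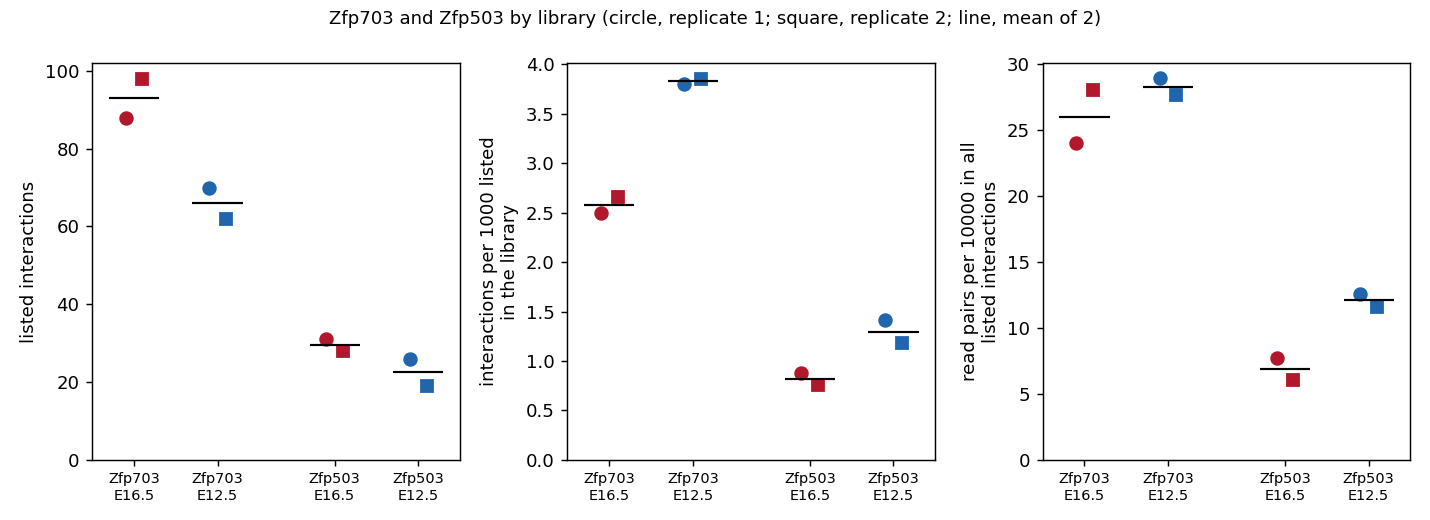
Listed interactions (left), interactions per 1000 listed in the library (middle) and read pairs per 10000 in all listed interactions (right) of Zfp703 and Zfp503, with E16.5 in red and E12.5 in blue. Circles are replicate 1, squares replicate 2 and lines the mean of the 2. The raw numbers are higher at E16.5 (93 and 66 on average for Zfp703), while the numbers per 1000 are lower at E16.5 for both genes.

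Contact strength was compared over the 6875 bin pairs listed in all 4 libraries, so contacts gained or lost between the stages are not in it. It was tested on read pairs with edgeR's quasi-likelihood test, and 404 pairs (5.88%) rose, 315 (4.58%) fell and 10.5% did either. Of 43 such Zfp703 contacts, which share an anchor and are not replicates, 1 rose, 0 fell and 42 did not pass. Their median log2 change was 0.16 (range -0.62 to 0.77), beside -0.01 for all bin pairs, and 30 of 43 (69.8%) were above 0, beside 49.2% of all bin pairs. In 28 of them (65.1%) each E16.5 library had more raw read pairs than either E12.5 library, and in 1 fewer, beside 50.7% and 7.87% of all bin pairs. Of the 12 Zfp503 contacts, 0 rose and 0 fell in edgeR, and 0 had an unadjusted p under 0.05. DESeq2 likewise called 0 of these 12, but it could not call all of them. It gave no adjusted p for some, among them the contacts at 580, 610 and 830 kb. Their median was -0.39 (range -0.58 to 0.09), with 1 of 12 above 0 and a smallest adjusted p of 0.226. With the authors' expected count as an offset, the medians were 0.28 for Zfp703, 0.027 for Zfp503 and 0.12 for all bin pairs, a shift of 0.13, and 18 of all bin pairs rose and 0 fell.

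**Figure D4:**
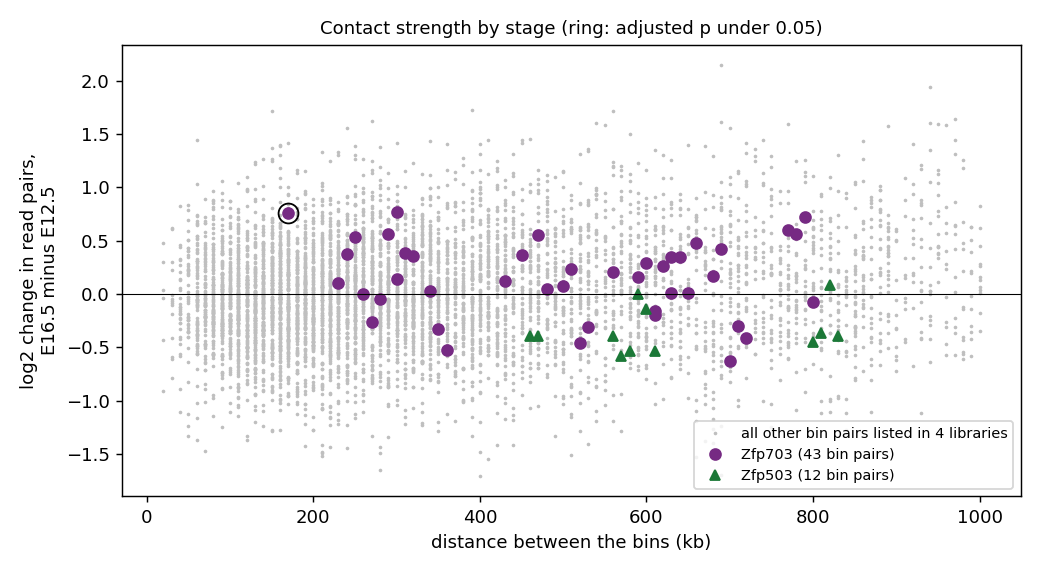
Log2 change in read pairs, E16.5 minus E12.5 (y axis), against the distance between the bins in kb (x axis), for the bin pairs listed in all 4 libraries. Purple circles are the 43 Zfp703 pairs, green triangles the 12 Zfp503 pairs and grey points all others. The ring marks the 1 Zfp703 pair with an adjusted p under 0.05, at 170 kb, and 11 of the 12 Zfp503 points lie below 0.

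The Zfp703 contact that rose lay 170 kb from the bin from 26970001, at chr8:26800001-26810000, a bin that overlaps no annotated protein-coding or long non-coding RNA gene. It had 57 and 69 read pairs at E16.5, against 31 and 27 at E12.5, with no overlap. The log2 change was 0.76 (SE 0.25, edgeR adjusted p = 0.0414). Its ratio to the authors' expected count was 3.50 and 6.29 at E16.5 and 3.22 and 3.11 at E12.5. The call was lost without E16.5 replicate 2 (0.57, adjusted p = 0.286), without E12.5 replicate 1 (0.83, adjusted p = 0.170) and without E12.5 replicate 2 (0.69, adjusted p = 0.270), all in edgeR. It was also lost without TMM, with the expected count as an offset and in DESeq2, where the adjusted p was 0.0588, 0.440 and 0.298 in that order.

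The Zfp703 contacts with the most read pairs lay at 290 and 300 kb, in the body of the long non-coding RNA gene Gm32098. At chr8:26680001-26690000 there were 90 and 91 read pairs at E16.5, against 50 and 45 at E12.5. The log2 change was 0.57 (SE 0.23, edgeR adjusted p = 0.100), and a fit blocked on replicate number gave an adjusted p of 0.0360. From the other Zfp703 bin the same partner, named after its values were seen, had 32 and 34 read pairs at E16.5 and 18 and 12 at E12.5 (0.77, edgeR adjusted p = 0.0891). At 300 kb, chr8:26670001-26680000 had 60 and 79 at E16.5 and 52 and 46 at E12.5, a log2 change of 0.15 (edgeR adjusted p = 0.774). At 280 kb, chr8:26690001-26700000 had 36 and 46 at E16.5 and 34 and 32 at E12.5, a log2 change of -0.05 (edgeR adjusted p = 0.936). Raw read pairs were thus higher in both E16.5 libraries at all of these bins, as for 50.7% of all bin pairs listed in every library. The bins are adjacent or the same partner seen from both Zfp703 bins, and none passed the test.

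Some far contacts of Zfp703 stood well above the authors' expected counts. At 790 kb, chr8:26180001-26190000 had 46 and 54 read pairs at E16.5, against 22 and 25 at E12.5. These were 15.5 and 21.9 times the expected count at E16.5 and 8.71 and 11.9 times at E12.5, where the median Zfp703 interaction was at 4.69 and 5.38 times at E16.5 and 4.58 and 4.99 times at E12.5. The log2 change was 0.72 (SE 0.27, edgeR adjusted p = 0.0731), with an adjusted p of 0.0357 under the replicate block. At 620 kb, chr8:26350001-26360000 had 43 and 48 at E16.5 and 34 and 25 at E12.5 (0.26, edgeR adjusted p = 0.592). The farthest contact listed in both E16.5 libraries joined the bin from 26980001 to Thap1 at 830 kb, with 12 and 12 read pairs. This bin pair was not listed at E12.5. From the bin from 26970001, at 820 kb, the same Thap1 bin had 20 read pairs in E16.5 replicate 2 and 14 in E12.5 replicate 2. The farthest listed in both E12.5 libraries lay at 810 kb from the bin from 26980001. It had 9 read pairs in E16.5 replicate 2 and 8 and 9 at E12.5.

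The Zfp503 contacts with the most read pairs formed a peak at 580 to 610 kb inside Lrmda. At 590 kb, chr14:22570001-22580000 had 57 and 47 read pairs at E16.5 and 45 and 36 at E12.5 (log2 change -0.0032, edgeR adjusted p = 0.995). At 600 kb, chr14:22580001-22590000 had 49 and 35 at E16.5 and 30 and 42 at E12.5, so the stages overlapped (-0.14, edgeR adjusted p = 0.796). The flanking contacts at 580 kb, with 27 and 27 at E16.5 and 22 and 39 at E12.5, and at 610 kb, with 26 and 21 at E16.5 and 24 and 29 at E12.5, overlapped too. Their log2 changes were -0.54 and -0.53, with edgeR adjusted p of 0.237 and 0.246. Of these 4 contacts, the one at 590 kb alone had more read pairs in each E16.5 library than in either E12.5 library.

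A second peak of Zfp503 lay at 820 kb, in the bin with the Gm30926 start shown above. There, chr14:22800001-22810000 had 47 and 31 read pairs at E16.5 and 32 and 25 at E12.5, which overlapped (log2 change 0.09, edgeR adjusted p = 0.888). It stood at 16.6 and 12.7 times the expected count at E16.5 and 10.4 and 9.41 times at E12.5. Next to it, the contact at 830 kb, the farthest listed in both E12.5 libraries, had 26 and 24 at E16.5 and 27 and 24 at E12.5 (-0.39, edgeR adjusted p = 0.430). The farthest in both E16.5 libraries, at 930 kb, had 17 and 16 at E16.5 and was listed once at E12.5, with 18.

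Contacts listed at E12.5 were mostly listed at E16.5 too. Of the 47 Zfp703 bin pairs listed in both E12.5 libraries, 43 (91.5%) were listed in both E16.5 libraries. Of the 80 listed in both E16.5 libraries, 53.8% were in both at E12.5. For Zfp503 the shares were 12 of 14 (85.7%) and 57.1% of 21. For all bin pairs they were 72.6% and 33.1%. The E16.5 lists were longer, which enters each of these shares. The choice of the genes by their many interactions in these same lists enters them too. Shares above those of all bin pairs are therefore described without a test.

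Some bin pairs were listed at 1 stage only. Of the Zfp703 bin pairs, 13 (11.7%) were listed in both E16.5 libraries and in neither at E12.5, and 0 in both E12.5 libraries only. The one with the most read pairs, at 120 kb, had 39 and 32 at E16.5. Those of the 13 that start from the bin from 26980001 had partners listed at E12.5 from the bin from 26970001. The partner at 730 kb from the bin from 26970001 was listed in E12.5 replicate 2 from the bin from 26980001. For the gene as a whole, these partners were thus not restricted to E16.5. Zfp503 had 3 bin pairs in both E16.5 libraries only, the strongest at 550 kb in the body of 4930405A10Rik, with 18 and 19 read pairs. It had 1 in both E12.5 libraries only, at 370 kb, with 24 and 21. A single library held 13 more Zfp703 bin pairs at E16.5 and 5 at E12.5, and 11 more Zfp503 bin pairs at E16.5 and 6 at E12.5. Over all bin pairs, 15.2% were in both E16.5 libraries only and 1.83% in both E12.5 libraries only, while 42.0% were in 1 E16.5 library only and 10.5% in 1 E12.5 library only. A bin pair that is not listed did not pass the authors' threshold and is not known to lack contact.

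**Figure D5:**
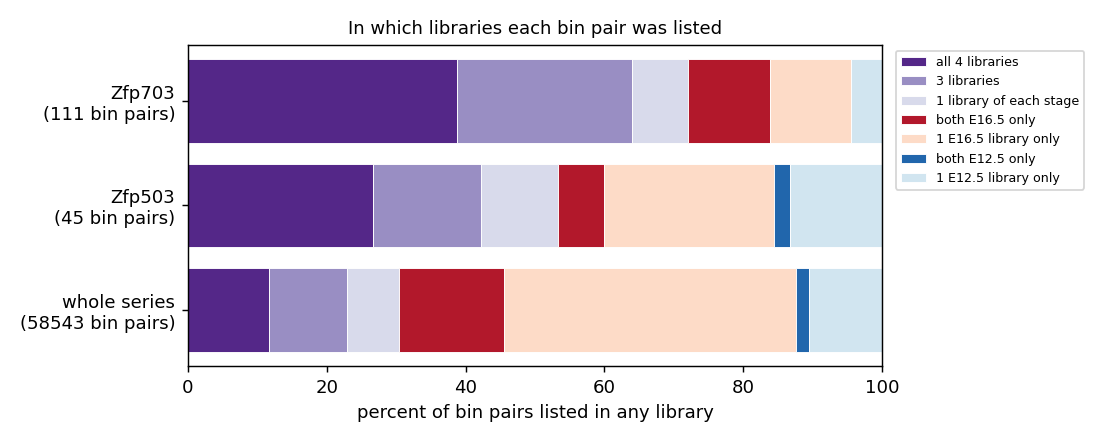
Share of bin pairs (x axis, percent) by the libraries in which they were listed, for Zfp703 (111 pairs), Zfp503 (45) and the whole series (58543). The darkest part, all 4 libraries, is 38.7% for Zfp703, 26.7% for Zfp503 and 11.7% for the whole series. The genes were chosen by their many interactions in these same lists, which enters this comparison.

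The genes whose numbers over the 4 libraries were most like those of Zfp703, by Euclidean distance of log2 interactions scaled to list length, were Zfp608, Mycn and Gse1. Zfp608 (distance 0.252), a zinc finger gene, had 97 and 110 interactions at E16.5 and 64 and 60 at E12.5. Mycn (0.287), a transcription factor gene of neural progenitors, had 80 and 89 at E16.5 and 61 and 58 at E12.5. Gse1 (0.388) had 106 and 109 at E16.5 and 74 and 73 at E12.5. Those most like Zfp503 were Utp11 (0.185), Eomes (0.206) and Tceanc2 (0.286). Eomes, a T-box gene of cortical intermediate progenitors, had 29 and 27 at E16.5 and 28 and 17 at E12.5. The measure takes in the level and its pattern over the 4 libraries together.

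Contact number was also read in lists of genes of related function, beside the 11% of all tested genes that rose and the 3.49% that fell. Among markers of tissue outside the label, 0 of 8 tested midbrain and hindbrain genes rose and 4 fell in edgeR (Pax2, Gbx2, Hoxb2 and Hoxb4). Of the 10 forebrain markers, 1 rose and 5 fell. The part of either in the falls below was not tested. In the list of NET and Sp family zinc finger genes, which holds both genes described here, 6 of 11 were tested, and by edgeR 0 rose and 1 fell (median log2 change -0.40). The one that fell was Sp8, a regulator of forebrain patterning, with 23 and 20 interactions at E16.5, against 36 and 28 at E12.5 (-1.41, edgeR adjusted p = 0.00258). Of the Groucho/TLE corepressors and histone deacetylases, 4 of 9 were tested, with 0 that rose and 1 that fell (median -0.08). That was Tle3, a Groucho-type corepressor, with 63 and 69 at E16.5 and 58 and 68 at E12.5 (-0.78, edgeR adjusted p = 0.00778). Its raw numbers overlapped. With lists of equal length its change was -0.35 and did not pass (edgeR adjusted p = 0.333), nor did it pass at an FDR under 0.0001 (0.145 in edgeR), in DESeq2 (0.261) or without E12.5 replicate 2 (0.114 in edgeR).

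Regulators of the lateral ganglionic eminence and the striatal lineage, the territory in which Zfp503 is known, had 23 of 30 genes tested, of which 1 rose and 5 fell in edgeR (median -0.25). Foxp1, a striatal transcription factor gene, rose, with 41 and 48 interactions at E16.5, against 15 and 7 at E12.5 (1.17, edgeR adjusted p = 0.0216). Six3, a forebrain homeobox gene, fell, with 68 and 55 at E16.5 and 64 and 67 at E12.5 (-0.93, edgeR adjusted p = 0.00389). Dlx2, a homeobox gene of ventral progenitors, fell, with 16 and 12 at E16.5 and 19 and 17 at E12.5 (-1.20, edgeR adjusted p = 0.0180). Foxp4, another forkhead gene, fell too, with 32 and 35 at E16.5 and 30 and 36 at E12.5 (-0.82, edgeR adjusted p = 0.0272). The raw numbers of Six3 and Foxp4 overlapped between the stages. Alternatives were not examined for Foxp1 and Foxp4. Sp8, described above, fell as well.

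Of the Wnt and TGF-beta genes linked to Zfp703, 7 of 12 were tested, 0 rose and 3 fell in edgeR (median -0.96). Tcf7l2, a Wnt effector, had 20 and 9 interactions at E16.5, against 29 and 41 at E12.5 (-2.10, edgeR adjusted p = 0.00118). Lef1, another Wnt effector, had 11 and 18 at E16.5, against 25 and 29 at E12.5 (-1.73, edgeR adjusted p = 0.00154). Axin2, a Wnt target and feedback inhibitor, fell as well (-1.07, edgeR adjusted p = 0.00970). In DESeq2 the adjusted p was 0.135 for Six3, 0.230 for Dlx2 and 0.166 for Axin2, and with lists of equal length that of Dlx2 was 0.120 in edgeR. Dlx2 and Axin2 were also lost without E12.5 replicate 2 (edgeR adjusted p = 0.0745 and 0.0925), and Dlx2 without E16.5 replicate 2 (0.135). Of the retinoic acid pathway, 5 of 16 genes were tested, with 0 that passed in edgeR and 1 at an unadjusted p under 0.05 (median -0.25). The median over all tested genes was 0.25. Without E12.5 replicate 1, 0 of the 4036 genes rose or fell in edgeR.

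The tissue label was checked with markers. Interactions of 10 forebrain genes summed to 389 and 353 at E16.5 and 389 and 385 at E12.5. Midbrain and hindbrain genes summed to 85 and 61 at E16.5 and 109 and 68 at E12.5, over 8 of 10 genes, with En2 and Pax5 at 0. Blood and endothelium genes summed to 0 in every library. Only 5 of these 6 genes are autosomal, and Gata1 could not be seen in lists of autosomes. Microglia genes summed to 1 and 2 at E16.5 and 2 and 2 at E12.5, and meninges genes to 27 and 11 at E16.5 and 21 and 20 at E12.5. Listed interactions held 892987 and 911710 read pairs at E16.5 and 446855 and 405491 at E12.5, and the total depth is unknown.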

How the data were processed

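H3K4me3 PLAC-seq was measured in 2 libraries of fetal mouse forebrain at E16.5 and 2 at E12.5. The submitters' processing notes name BWA, SAMtools and mm10. Tool versions, caller and cutoffs were not given in the sources used. The authors deposited, per the file headers, for each interaction between 10 kb bins the count of read pairs, an expected signal (their model's expected count, correction not stated), an FDR (a q-value), a −log10 p of the cluster, and a summit mark, a score. The values show pairs on 19 autosomes at 20 to 1000 kb, an FDR under 0.01 and at least 2 times the expected count. Each library has a list of its own.

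Counts were used as deposited. Gene bodies and starts came from RefSeq (GRCm38.p6). Contact number counted the listed interactions on a gene body, for genes with a sum of at least 10; contact strength was the read pairs of bin pairs listed in all 4 libraries. Both were fitted with edgeR 4.0.16 (R 4.3.3; TMM, robust quasi-likelihood, stage as the sole term, Benjamini-Hochberg at 0.05), tested on simulated data. Single values were tested by exact permutation over the 6 assignments of libraries. Python 3.11.15, pandas 2.3.3 and SciPy 1.17.1 were used for the rest.

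For each gene, the named contacts were the 6 with the most read pairs among those listed in all 4 libraries, any past the threshold, the strongest restricted to a stage and the farthest; 3 genes were named for likeness (log2 with a prior count of 2, over 1 Mb away), and from lists up to 4 genes past the threshold by smallest p, with Foxp1 and Foxp4 added after their values were seen. A list member picked by the rule is not reported here. The genes, lists and tests were chosen with earlier results of these data known. Alternatives were no TMM, DESeq2 1.42.0, filters of 20 and of 1, gene-end bins, equal lists of 16075, an FDR under 0.0001, clusters counted once, at most 200 kb, read pairs, a quasi-dispersion of at least 1, the expected count as offset, 10 distance bins, the replicate block and each library left out.

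Replicates differed by more than counting noise, with a chi-square of 1.745 (E16.5) and 1.30 (E12.5) times its degrees of freedom over contacts averaging 40 or more read pairs.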

Additional observations from a re-analysis of the deposited data

How the results depend on the processing

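Changes are E16.5 minus E12.5. In contact number, the 443 genes that rose became 78 in DESeq2, 181 with gene-end bins, 171 with lists of equal length, 145 at an FDR under 0.0001, 126 within 200 kb, 0 with clusters counted once and 0 with read pairs. The 141 that fell became 212 without TMM, 27 in DESeq2, 53 with gene-end bins, 91 with equal lists, 80 at the stricter FDR, 33 within 200 kb, 0 with clusters counted once and 0 with read pairs. With 1 library left out, 0 to 275 rose and 0 to 115 fell; a lone library is then assumed to vary like the other stage. Zfp703's change in number was -0.49 (edgeR adjusted p = 0.0443) without TMM and -1.36 (edgeR adjusted p = 0.333) with clusters counted once. It was 0.081 with equal lists, 0.052 at the stricter FDR, 0.78 within 200 kb and 0.025 with read pairs. With 1 library left out it was -0.41 to -0.32. Zfp503's stayed negative and short of the threshold in the 15 alternatives run for it, -0.80 to -0.28; it has no value within 200 kb. Tle3 was at 0.20 within 200 kb and Six3 at 0.0079 with clusters counted once.

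In contact strength, the 404 bin pairs that rose became 59 in DESeq2, 18 with the expected offset and 132 to 317 with 1 library left out, and the 315 that fell 39, 0 and 142 to 220. Of the Zfp703 contacts, 0 rose without TMM, in DESeq2 and with the expected offset, and 0 to 2 with 1 library left out. Zfp703's median was 0.28 with the expected offset, 0.071 within distance bins and 0.072 to 0.29 with 1 library left out. Zfp503's was 0.027 with the expected offset and -0.49 to -0.20 with 1 left out. The expected offset also turned the Zfp703 contact at -280 kb (0.0028) and the Zfp503 contacts at 580 kb (0.0085), 590 kb (0.41), 600 kb (0.39) and 830 kb (0.13); distance bins turned the one at 820 kb (-0.057). With 1 library left out, the Zfp703 contacts at -300 and -280 kb ran from -0.11 to 0.38 and -0.28 to 0.17, and the Zfp503 contacts at 590, 600 and 820 kb from -0.13 to 0.13, -0.40 to 0.15 and -0.19 to 0.31. The cause was not tested for any of these.

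The median distance differed for Zfp703 by -10 kb at the stricter FDR, 5 kb with equal lists, -35.9 kb weighted by read pairs and -32.5 to -22.5 kb with 1 library left out, and for Zfp503 by 5 kb, 2.5 kb, 12.9 kb and -2.5 to 2.5 kb. Per 10000 read pairs, Zfp703 differed by 4.06 at the stricter FDR, 4.14 with equal lists and -4.26 to -0.266 with 1 left out (-2.26 in full), and Zfp503 by -6.85 at the stricter FDR and -6.03 to -4.35 with 1 left out (-5.19 in full).

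With the replicate number as a block, 249 genes rose in contact number, Zfp703 changed by -0.35 (adjusted p = 0.160) and Zfp503 by -0.44 (adjusted p = 0.342), and 3 Zfp703 contacts rose. Same-numbered libraries deviated together only weakly (r = 0.0889 for number, 0.127 for strength), with 2 pairs, so the samples share only a number. Depth behind the lists is unknown.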
